A study of Sus scrofa with 24 samples.

Results

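MHC class II molecules are the surface proteins that show peptides from outside the cell to CD4+ T cells. The 9 genes described here encode the pig class II chains, which carry the prefix SLA (swine leukocyte antigen), and the proteins that load and switch them on. They were chosen by gene symbol and not by their values. Of the 9 genes, 8 had an entry among the 38882 genes counted in the hippocampus, the brain region of learning and memory. Their messenger RNA was sequenced in 24 piglets at postnatal day 14, split evenly by birth size and formula into AGA CON, SGA CON, AGA HF and SGA HF, with 6 piglets apiece. All were offspring of PIC Camborough dams and PIC 359 sires, were housed individually and drank a liquid formula. SGA piglets were small and AGA piglets of appropriate weight for gestational age. CON formula carried its fat as triglyceride-rich oils, and in HF (hydrolyzed fat) formula part of that fat was replaced with free fatty acids, a monoacylglycerol and lecithin. Piglets came as sex-matched sibling pairs, 1 SGA and 1 AGA animal from a litter fed alike, with 6 litters per diet. A litter is named here by its diet and replicate number, and replicates 1 to 3 formed cohort 1 and replicates 4 to 6 cohort 2. Each diet was fed to different litters, so a diet difference is a difference between litters, whereas a size difference can be read within a litter.

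In brain tissue, class II genes are used mainly by microglia and by macrophages, dendritic cells and B cells at the borders of the brain, and they are low in the undisturbed young brain. An α chain and a β chain form each surface molecule, SLA-DR from SLA-DRA and SLA-DRB1 and SLA-DQ from SLA-DQA1 and SLA-DQB1. The DM protein, made of the SLA-DMA and SLA-DMB chains, places peptides into the groove inside the cell, and DO, to which SLA-DOA contributes, restrains DM. CD74, the invariant chain, occupies the groove until DM acts, and CIITA is the coactivator that turns the whole set on, with interferon-γ as its best-known inducer.

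The 7 SLA members lie on chromosome 7 of Sscrofa10.2 within 512.7 kb, between positions 29036552 and 29549278. SLA-DRA spans 29036552 to 29042147 on the plus strand, SLA-DRB1 spans 29112883 to 29125494 on the minus strand, SLA-DQA1 spans 29164965 to 29170808 on the plus strand and SLA-DQB1 spans 29180534 to 29188739 on the minus strand. The loading genes lie further along on the minus strand, SLA-DMB at 29485890 to 29491702, SLA-DMA at 29500103 to 29504572 and SLA-DOA at 29545479 to 29549278. CIITA is on chromosome 3, from 33109119 to 33117697 on the minus strand. Reads were counted over the exons of each gene. CD74 was not analysed here.

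Class II RNA was scarce. Library totals over the listed genes ranged from 6017336 to 9284355 reads, at which 3 reads are 0.323 to 0.499 CPM, the read count scaled to the size of its library. SLA-DRA had 2201 reads over the 24 libraries, with 9 to 718 in a library, and SLA-DMB had 2126 reads, with 49 to 148. SLA-DRB1 held 3 to 159 reads per library, SLA-DQA1 3 to 518, SLA-DQB1 13 to 309 and SLA-DMA 18 to 106. SLA-DOA had 123 reads in all and none in 2 libraries. CIITA had 17 reads in all, 0 to 5 in a library, and was detected in 7 libraries. The low-count filter required 1 CPM in at least 3 libraries, which 7 of the 9 members passed, all of them SLA genes. Of the other class II symbols in the name table, SLA-DOB, the partner chain of SLA-DOA, held 72 reads and the SLA-DRB-like LOC106504372 held 2. Class II chains are related copies and vary between animals, and reads aligning to several places were not counted, so each level is less certain than that of a single-copy gene.

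Per kilobase of exon, SLA-DMB was the most abundant member, with a median of 8.58 CPM per kb over the 24 piglets and a range of 4.81 to 15.6. SLA-DQB1 followed with a median of 4.74 CPM per kb, SLA-DRA with 4.14, SLA-DMA and SLA-DRB1 with 3.90 each and SLA-DQA1 with 2.22. SLA-DMB exceeded SLA-DQB1 in 16 of 24 piglets, and the next 4 neighbours in this order were each above the following gene in 10 to 14 of 24, so their order was not stable from piglet to piglet. SLA-DOA stood well below, with a median of 0.202 CPM per kb, under SLA-DQA1 in 23 of 24 piglets. The surface chains had the widest ranges. SLA-DRA reached from 0.956 to 66.3 CPM per kb and SLA-DQA1 from 0.242 to 45.3.

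Surface chain RNA differed from piglet to piglet far more than from group to group. SLA-DRA, the shared α chain of SLA-DR, had a lowest, median and highest level of 1.19, 7.11 and 37.5 CPM in AGA piglets on CON formula and of 3.33, 7.49 and 82.9 CPM in their SGA littermates. On HF formula the same 3 values were 1.98, 3.46 and 18.6 CPM in AGA piglets and 1.60, 5.25 and 17.4 CPM in SGA piglets. The 4 groups overlapped, and the highest library of every group belonged to replicate 2 or 3. SLA-DQA1, the α chain of SLA-DQ, followed the same pattern. Its lowest, median and highest levels were 0.531, 4.12 and 27.1 CPM for AGA CON, 1.67, 4.53 and 59.8 CPM for SGA CON, 2.10, 2.52 and 12.5 CPM for AGA HF and 0.320, 3.31 and 13.5 CPM for SGA HF piglets.

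**Figure D1:**
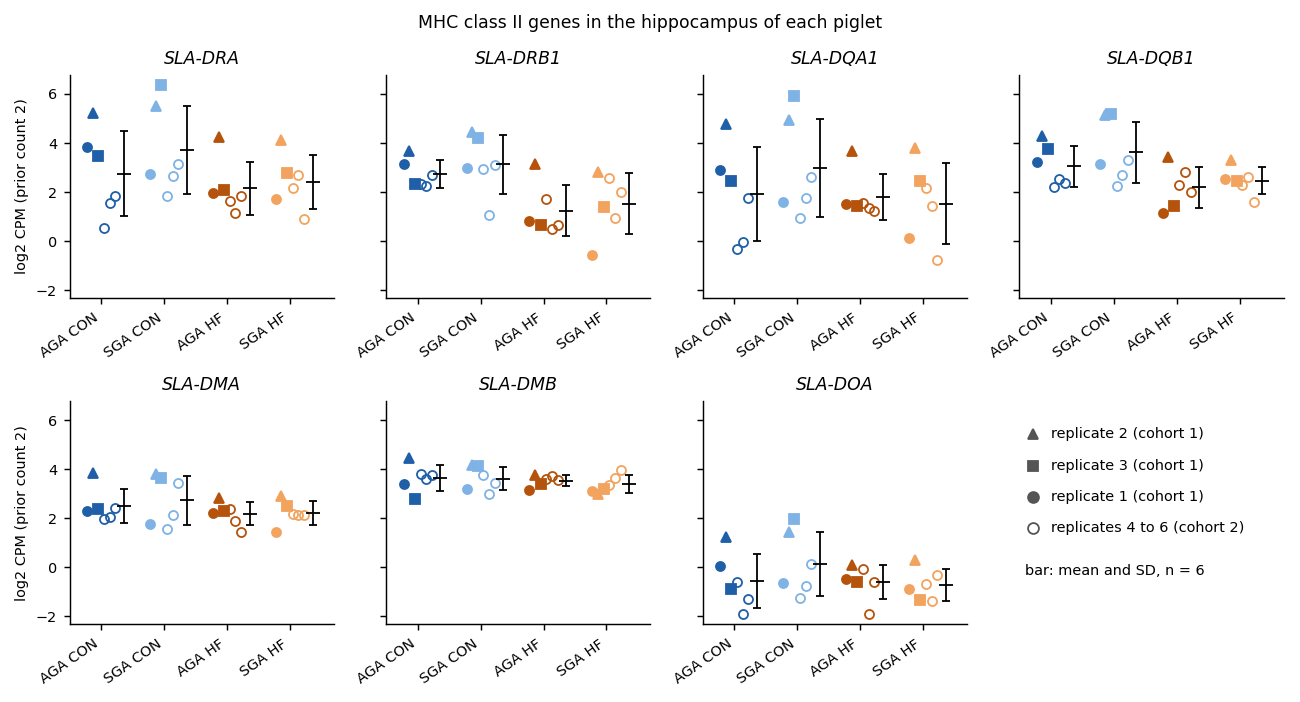
log2 CPM (prior count 2, vertical axis) of the 7 class II genes that passed the filter, in each of the 24 piglets by group, with the mean and SD of 6 piglets as a bar. Replicate 2 (triangles) is the highest or next to highest library of SLA-DRA and SLA-DQA1 in every group, and SLA-DMB varies least.

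The β chains had lower medians on HF formula in AGA and in SGA piglets. In AGA piglets SLA-DRB1 ranged from 4.53 to 12.4 CPM on CON formula (median 5.47), and its HF range was 1.15 to 8.64 CPM (median 1.41). In SGA piglets it ranged from 1.84 to 21.7 CPM (median 7.96) on CON and from 0.409 to 6.80 CPM (median 3.03) on HF formula. Only the replicate 2 piglet of the AGA HF group reached into the AGA CON range. SLA-DQB1 spanned 4.38 to 19.0 CPM (median 7.26) for AGA CON, 1.97 to 10.6 CPM (median 4.20) for AGA HF, 4.55 to 35.7 CPM (median 9.14) for SGA CON and 2.77 to 9.71 CPM (median 5.31) for SGA HF piglets.

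Of the loading genes, SLA-DMB and SLA-DMA were steadier than the surface chains. SLA-DMB lay between 6.64 and 21.5 CPM in all 24 piglets, with group medians of 12.8 (AGA CON), 11.9 (SGA CON), 11.9 (AGA HF) and 9.50 CPM (SGA HF). SLA-DMA had group medians of 4.84, 7.32, 4.53 and 4.22 CPM in the same order, and its highest AGA CON piglet, at 14.3 CPM, was again replicate 2. SLA-DOA stayed between 0 and 3.69 CPM, near the level of 3 reads in most libraries. All 4 group medians of CIITA were 0, and its highest value was 0.821 CPM in SGA CON replicate 2. At this depth no difference in CIITA could be detected.

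To ask whether diet changed these genes, HF was compared with CON in edgeR's quasi-likelihood fit on the 4 groups, sex and 5 surrogate variables, which are patterns estimated from the data to absorb unwanted variation. A DEG (differentially expressed gene) was called at an adjusted p (false discovery rate) under 0.4, over 7 contrasts and all 16326 genes tested. That is the lenient threshold the authors set for their heat map, and a sizeable part of the genes called at it may be false calls. None of the 7 members was a DEG for diet, against 0.159% of all genes, and 2 of 7 were lower on HF at an unadjusted p under 0.05, against 3.50% of all genes, with 7.09% past that p in either direction. SLA-DRB1 was lower on HF by a log2 fold change of -0.95 ± 0.24 (SE; adjusted p = 0.402), which missed the threshold narrowly. SLA-DQB1 followed at -0.89 ± 0.24 (adjusted p = 0.428) and SLA-DRA at -0.50 ± 0.26 (adjusted p = 0.760). SLA-DMA, SLA-DQA1 and SLA-DMB had log2 fold changes of -0.30, -0.22 and -0.16, and SLA-DOA of 0.10, with adjusted p from 0.792 to 0.989. The median of the 7 members was -0.30, beside 0.00 over all genes, of which 49.2% were lower.

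The call on the β chains depended on which litters and terms were in the fit. Leaving out any one of 10 litters made 1 or 2 members DEGs for diet, SLA-DRB1 in 9 of these 12 fits and SLA-DQB1 in 5, whereas without the CON replicate 1 or the CON replicate 3 litter no member passed. The share of all genes called for diet in these fits ran from 0.0307% without the HF replicate 5 litter to 4.66% without the HF replicate 3 litter. Both genes were DEGs in DESeq2, against 0.539% of all genes. Both were DEGs with cohort in place of the surrogate variables (adjusted p = 0.362 for SLA-DRB1 and 0.378 for SLA-DQB1), against 0.0980% of all genes. Litter was also entered as a random replicate block, in limma's voom fit with sex and cohort and without surrogate variables. There 0.0858% of all genes were DEGs, and SLA-DRB1 was at -1.72 (adjusted p = 0.161) and SLA-DQB1 at -1.20 (adjusted p = 0.286). That fit used 1 littermate correlation, 0.0842, for all genes. Most of the spread of these 2 genes lay between litters (below), so its p can be too small for them. In the fit on counts summed over littermates, which leaves 12 values, no gene was a DEG, and SLA-DRB1 was at -1.40 and SLA-DQB1 at -1.10 (adjusted p = 0.998 for both). SLA-DRB1 was lower on HF in each of these fits across all genes, between -2.02 and -0.74, and had an unadjusted p under 0.05 in each. The fits share most of their piglets, and most take piglets as independent although diet was given by litter. Their agreement is therefore not repeated evidence. SLA-DRA was more mobile, at -0.50 with the surrogate variables and at -1.56 without them.

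Without 2 CON litters the α chains were no longer below CON on HF formula, whereas SLA-DRB1 was. Without the CON replicate 2 litter, where 1.46% of all genes were DEGs, SLA-DRB1 became one for diet (log2 fold change -1.19, adjusted p = 0.163), SLA-DQB1 moved to -0.73 (adjusted p = 0.476) and SLA-DRA stayed at -0.58 (adjusted p = 0.652). In a setting chosen after the data were seen, the CON replicate 3 litter was left out as well. SLA-DRB1 was then at -1.09 (adjusted p = 0.673), while SLA-DQB1 was at -0.32, SLA-DRA at 0.015 and SLA-DQA1 at 0.27. Each cohort was also fitted alone, with sex but without surrogate variables, so its values do not compare directly with those above. Over all 24 piglets, leaving out the surrogate variables by itself put SLA-DRA at -1.56. Within cohort 1 alone, which holds both litters, the log2 fold changes of SLA-DRB1, SLA-DRA and SLA-DQB1 ran from -2.02 to -1.82, and all 7 members were lower at an unadjusted p under 0.05, against 3.57% of all genes. The cohort fits took littermates as independent although diet was given by litter, and most members moved together (below). The 7 are therefore not separate results. Between litter means of cohort 1 the exact permutation p was 0.1 for SLA-DRB1, the smallest possible, and 0.2 to 0.4 for the others. Within cohort 2 alone SLA-DRB1 was at -1.06, SLA-DRA at -0.20 and SLA-DQB1 at -0.30, and of the 6 members tested there SLA-DRB1 alone had an unadjusted p under 0.05. No member was a DEG in either cohort, and whether the cohorts differed from each other was not tested.

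**Figure D2:**
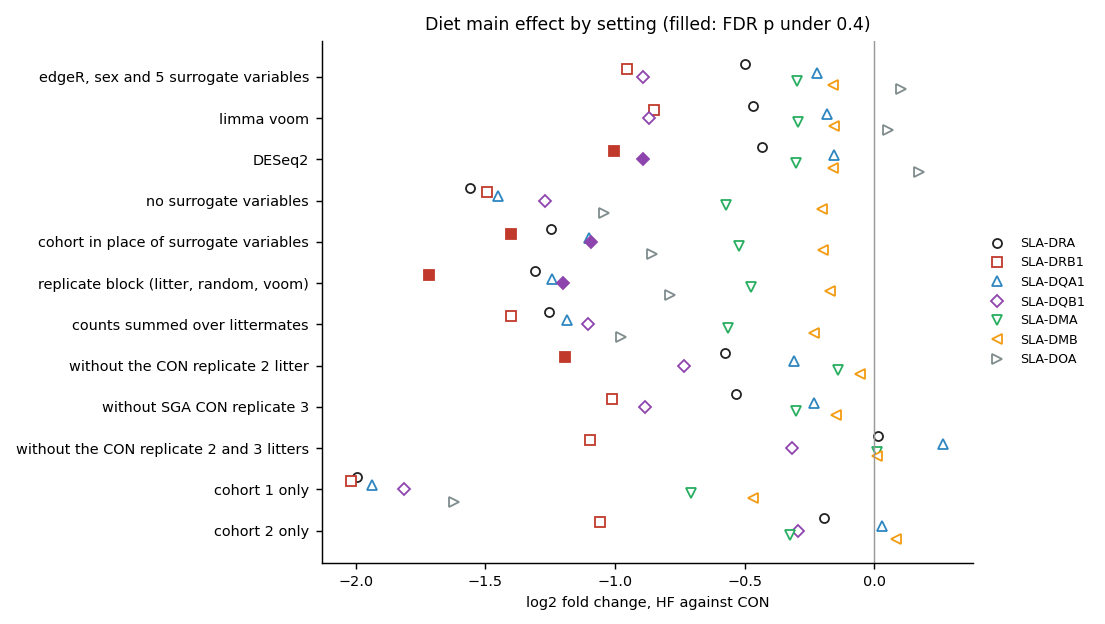
log2 fold change of HF against CON (horizontal axis) for each class II gene under 12 settings of the fit, filled where the adjusted p was under 0.4. SLA-DRB1 (red squares) stays at or below -0.85 in all 12, whereas SLA-DRA, SLA-DQA1, SLA-DMA and SLA-DMB lie near or above 0 without the CON replicate 2 and 3 litters.

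Because piglets of a litter shared their diet, each gene was also compared between the 6 HF and 6 CON litter means. SLA-DRB1 litter means were 0.963 to 7.72 CPM on HF (median 2.16) and 3.18 to 17.0 CPM on CON (median 7.69). Of the HF litters, 4 lay below every CON litter, and 3 CON litters lay above every HF litter. The difference was -1.55 on the log2 scale (two-sided exact permutation test over 924 splits, p = 0.0217, adjusted p = 1.00 over all genes). SLA-DRB1 was the 1 member of 7 with a p under 0.05, where 1.72% of all genes were lower on HF at that p. SLA-DQB1 litter means were 3.29 to 10.1 CPM on HF and 4.46 to 27.1 CPM on CON, a difference of -1.01 (exact permutation test, p = 0.0693), and for SLA-DRA the difference was -0.96 (p = 0.236 in the same exact test). Without the CON replicate 2 litter SLA-DRB1 differed by -1.32 (exact permutation test over 462 splits, p = 0.0433), where 3.44% of all genes were lower on HF at a p under 0.05. Without the CON replicate 3 litter as well it differed by -1.18 (210 splits, exact p = 0.0762), against 3.57% of all genes. With 3 litters against 3 in a cohort the smallest exact p is 0.10, and SLA-DRB1 differed by -2.09 in cohort 1 and by -1.0 in cohort 2.

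Size was compared first in the same fit, which has no litter term, and then between littermates. No member was a DEG between SGA and AGA piglets, against 0.478% of all genes, and none had an unadjusted p under 0.05, against 10.6%. SLA-DRA was higher in SGA piglets by a log2 fold change of 0.52 ± 0.27 (SE; adjusted p = 0.762 in edgeR's test), SLA-DQA1 by 0.50 ± 0.36, SLA-DQB1 by 0.47 ± 0.25 and SLA-DRB1 by 0.33 ± 0.27 (-0.048 without the CON replicate 1 litter). SLA-DMA, SLA-DMB and SLA-DOA had log2 fold changes of 0.14, 0.062 and -0.20. The median of the 7 members was 0.33, beside 0.00 over all genes. Single litters weighed on these values. Without the HF replicate 5 litter SLA-DRA was at 0.11, SLA-DQA1 at 0.18 and SLA-DQB1 at 0.22, and without the HF replicate 6 litter they were at 0.81, 0.81 and 0.63. SLA-DRB1 was at 0.65 without the HF replicate 2 litter, 0.61 without HF replicate 3 and 0.58 without CON replicate 4. Without SGA CON replicate 3 (a setting chosen after the data were seen) SLA-DRA and SLA-DQB1 were both at 0.35.

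By litter, SLA-DRA was higher in the SGA piglet in 8 of 12 litters, 5 of 6 on CON and 3 of 6 on HF, with a mean difference of 0.61 on the log2 scale (two-sided exact sign-flip permutation test over 4096 arrangements, p = 0.0845, adjusted p = 0.476). SLA-DQB1 was also higher in 8 of 12 litters (0.42, exact p = 0.0532, adjusted p = 0.405 in the same permutation test), SLA-DQA1 in 9 and SLA-DRB1 in 8, whereas SLA-DMB was lower in the SGA piglet in 10 of 12. None of the 7 members had a p under 0.05 in this test, against 12.6% of all genes. Leaving out a single litter brought SLA-DRA (without CON replicate 1, exact p = 0.0303, or HF replicate 6, exact p = 0.0381), SLA-DQB1 (without CON replicate 1, HF replicate 2, HF replicate 5 or HF replicate 6, exact p from 0.0440 to 0.0498) or SLA-DMB (without CON replicate 3, -0.22, exact p = 0.0430) below 0.05. With litter as a fixed replicate block in edgeR, SLA-DQB1 was at 0.42 (adjusted p = 0.523) and SLA-DRA at 0.61 (adjusted p = 0.600), both with an unadjusted p under 0.05, where 12.4% of all genes had one. In that fit 2.57% of all genes and none of the members were DEGs for size. No setting made a member a DEG for size.

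**Figure D3:**
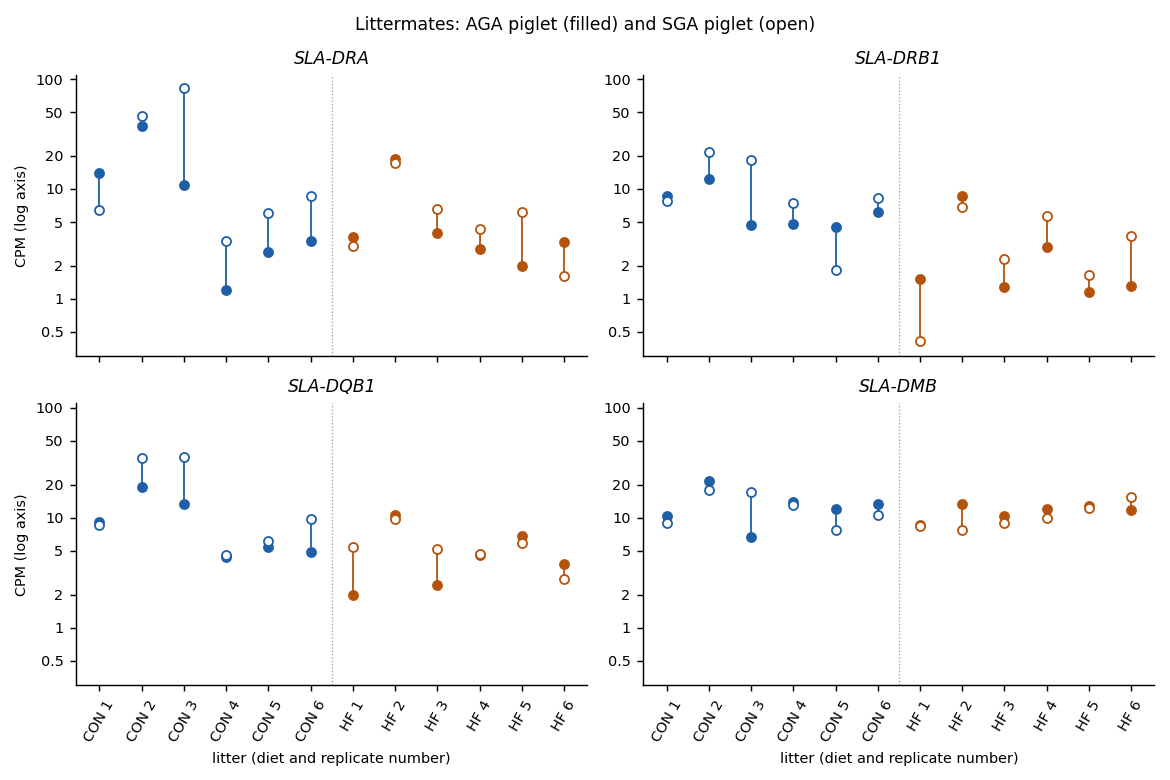
CPM on a log axis of SLA-DRA, SLA-DRB1, SLA-DQB1 and SLA-DMB in the AGA (filled) and SGA (open) piglet of each litter, with a line joining littermates. The CON replicate 2, CON replicate 3 and HF replicate 2 litters hold the highest SLA-DRA values.

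No member was a DEG for the interaction of size and diet, against 0.0490% of all genes. SLA-DOA, from very few reads, had a log2 interaction of -1.58 ± 0.69 (adjusted p = 0.693). It was the 1 member with an unadjusted p under 0.05, where 4.01% of all genes had one. Its p was above 0.05 in DESeq2, without surrogate variables, with cohort in their place, with either replicate block and within cohort 1. In the pairwise comparisons SLA-DRB1 was lower on HF by -1.05 ± 0.37 in AGA piglets (adjusted p = 0.585) and by -0.86 ± 0.33 in SGA piglets (adjusted p = 0.640), and SLA-DQB1 by -0.88 ± 0.35 (adjusted p = 0.645) and -0.91 ± 0.32 (adjusted p = 0.585). No member was a DEG in any of the 4, against 0.0674% of all genes for HF and CON in AGA piglets, 0.0919% in SGA piglets, 0.129% for SGA and AGA piglets on CON and 0.288% on HF formula. Without the CON replicate 2 litter SLA-DRB1 passed in AGA piglets (-1.44, adjusted p = 0.275, against 1.54% of all genes), and without the HF replicate 3 litter SLA-DRB1 and SLA-DQB1 did (adjusted p = 0.237 and 0.339, against 4.55%). In SGA piglets SLA-DQB1 passed without the HF replicate 3 litter (adjusted p = 0.373, against 2.40% of all genes) or the CON replicate 4 litter (adjusted p = 0.335, against 0.621%). With litter as a random replicate block both SLA-DRB1 (-1.86, adjusted p = 0.275) and SLA-DQB1 (-1.34, adjusted p = 0.384) passed in SGA piglets, against 0.0980% of all genes.

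Spread within the groups set the class II genes apart from most of the transcriptome. The SD of log2 CPM around the group means was 1.68 for SLA-DQA1 and 1.47 for SLA-DRA, larger than in 99.7% and 99.4% of the 16326 genes, and the 1812 genes within 0.5 log2 units of the mean level of SLA-DQA1 had a median SD of 0.393. SLA-DRB1, SLA-DOA and SLA-DQB1 followed with SDs of 1.04, 0.978 and 0.904, and SLA-DMA with 0.697. SLA-DMB had an SD of 0.421, larger than in 70.4% of genes. Much of this spread lay between litters. Of the variance within groups, 86.6% was between litters for SLA-DQB1, 85.7% for SLA-DRA, 82.5% for SLA-DQA1, 79.6% for SLA-DMA, 76.7% for SLA-DRB1 and 71.5% for SLA-DOA, where littermates no more alike than other piglets would give 50.0% and the median of all genes was 56.1%. SLA-DMB, at 56.5%, sat at that median. These shares include any difference between the cohorts, and SLA-DRA reached 82.9 CPM in cohort 1 but at most 8.55 CPM in cohort 2. With the group means taken within each cohort, the share was 82.7% for SLA-DQB1, 79.8% for SLA-DRB1 and 76.2% for SLA-DMA. It was 70.3% for SLA-DQA1, 68.95% for SLA-DRA, 57.05% for SLA-DMB and 55.8% for SLA-DOA, beside a median of 54.0% over all genes.

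The between-litter share of most members remained above that of most genes without the litters with the highest levels. Without the CON replicate 2 litter it was 82.0% for SLA-DQB1, 81.4% for SLA-DRA, 77.6% for SLA-DQA1 and 73.3% for SLA-DRB1, and 37.4% for SLA-DMB, beside a median of 54.4% over all genes. Without the CON replicate 3 litter as well, the 6 members other than SLA-DMB lay between 65.8% for SLA-DOA and 79.1% for SLA-DRB1. The SD of the SLA-DRA litter means was 1.64 among the 6 CON litters, 1.40 without replicate 2 and 0.867 without replicates 2 and 3, beside 0.996 among the 6 HF litters. Over all 12 litters, the mean CPM of the highest litter was 20.7 times that of the lowest for SLA-DRA, 29.6 times for SLA-DQA1, 17.7 times for SLA-DRB1 and 2.30 times for SLA-DMB. Litter SDs were larger in cohort 1 than in cohort 2, at 1.40 and 0.482 for SLA-DRA and 1.21 and 0.378 for SLA-DQB1.

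**Figure D4:**
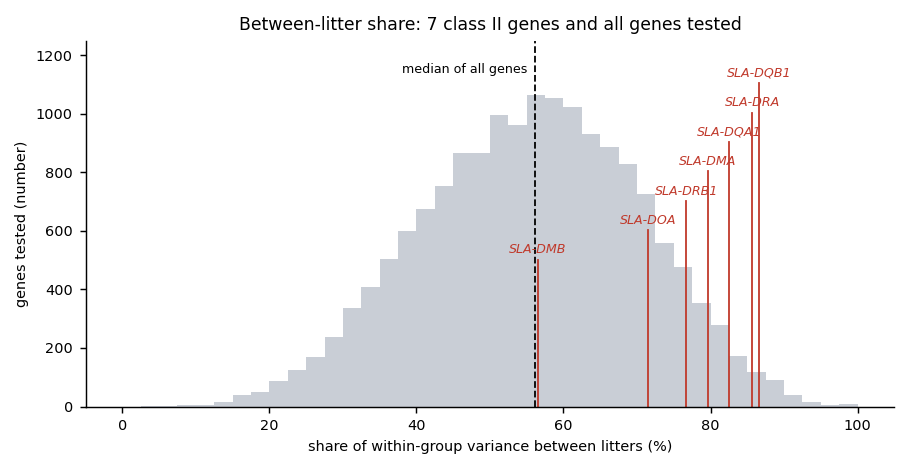
Number of the 16326 tested genes (vertical axis) by the share of their within-group variance in log2 CPM that lies between litters (horizontal axis, in %), with the 7 class II genes marked by lines and the median of all genes by a dashed line. All members but SLA-DMB lie to the right of the upper quartile of 66.4%.

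The class II genes moved together from litter to litter. Over the 12 litter means of log2 CPM, SLA-DQA1 had a Pearson r of 0.971 with SLA-DRA (permutation p = 1e-05, the smallest that 100000 resamples can give, adjusted p = 0.00013 over 13 relations) and a Spearman rho of 0.965. For SLA-DQB1 the r was 0.935 and the rho 0.888 (permutation p = 9e-05 and 0.00036, adjusted 0.000585 and 0.00156), and for SLA-DMA 0.872 and 0.888 (permutation p = 0.00043 and 0.00024, adjusted 0.00186 and 0.00156). SLA-DOA had an r of 0.842 (permutation p = 0.00065, adjusted 0.00211) and a rho of 0.629 (permutation p = 0.0318, adjusted 0.0827), and SLA-DRB1 0.720 and 0.734 (permutation p = 0.00855 and 0.00859, adjusted 0.0222 and 0.0279). SLA-DMB stood apart, with an r of 0.264 (permutation p = 0.415, adjusted 0.415) and a rho of -0.0909 (permutation p = 0.786, adjusted 0.786).

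The CON replicate 2 and 3 litters were the farthest from the median of SLA-DRA, and without them r was 0.931 for SLA-DQA1, 0.796 for SLA-DQB1, 0.696 for SLA-DMA, 0.569 for SLA-DOA, 0.499 for SLA-DRB1 and -0.472 for SLA-DMB. Within cohort 1 and within cohort 2, each of 6 litters, r was 0.988 and 0.849 for SLA-DQA1, 0.981 and 0.823 for SLA-DQB1, and 0.904 and 0.879 for SLA-DMA. SLA-DRB1 followed SLA-DRA closely in cohort 1 (0.932) and hardly in cohort 2 (0.150), and SLA-DOA likewise (0.946 and -0.110). The permutation p values above took no account of cohort or diet, and none was computed within a cohort. By diet, r was 0.951 on HF and 0.984 on CON for SLA-DQA1, and 0.695 and 0.785 for SLA-DRB1. CIITA was read too rarely to relate to the others, with r from 0.339 to 0.627 over the 7 SLA genes and no adjusted p under 0.05 (permutation test, 0.0635 to 0.303).

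Ratios to SLA-DRA showed the same grouping in single piglets. The log2 ratio of SLA-DQA1 to SLA-DRA differed by a median of 0.355 between littermates and ranged over 1.20 between litter means, although the levels of both genes ranged over far more. SLA-DRB1 did not keep a fixed ratio. Its litter mean log2 ratio to SLA-DRA ran from -1.70 in the HF replicate 1 litter to 1.44 in the CON replicate 4 litter, where SLA-DRA was lowest, and averaged -1.25 ± 0.55 in cohort 1 and 0.06 ± 0.89 in cohort 2 (SD, n = 6 litters). SLA-DMB ran from -1.47 in the CON replicate 3 litter to 2.58 in the CON replicate 4 litter. By diet the SLA-DRB1 ratio was -0.89 ± 0.79 on HF and -0.30 ± 1.13 on CON (SD, n = 6 litters), and the SDs overlapped.

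**Figure D5:**
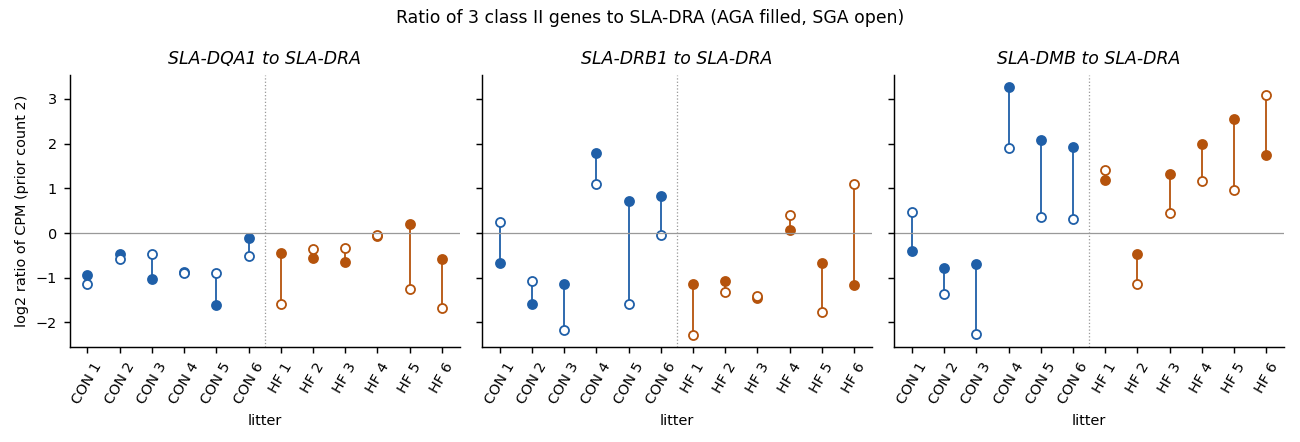
log2 ratio of SLA-DQA1, SLA-DRB1 and SLA-DMB to SLA-DRA (vertical axis, prior count 2) in the AGA (filled) and SGA (open) piglet of each litter. SLA-DQA1 stays between -1.7 and 0.2 in every piglet, whereas SLA-DRB1 and SLA-DMB change sign from litter to litter.

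In 3 litters the class II level was high, and the other genes that were high with it differed. In the CON replicate 2 litter the AGA and SGA piglets had 37.5 and 45.8 CPM of SLA-DRA, and the SLA class I genes SLA-1 (730 and 1077 CPM) and SLA-3 (279 and 418 CPM) were above their highest values of 365 and 116 CPM in the 18 piglets outside the CON replicate 2, CON replicate 3 and HF replicate 2 litters. SGA CON replicate 3 had the most SLA-DRA, at 82.9 CPM, and its SLA-1 (150 CPM) was within that range, whereas its SLA-3 (143 CPM), NLRC5, the class I coactivator (6.58 CPM, highest of the 18 at 4.76), and ERAP1, a peptide-trimming enzyme (2.66 CPM, highest of the 18 at 1.95), were above it. Its AGA littermate had 10.9 CPM of SLA-DRA. The HF replicate 2 litter had 18.6 and 17.4 CPM of SLA-DRA, above the 13.9 CPM that was the highest of those 18 piglets. SLA-1 was at 458 CPM in its AGA and 243 CPM in its SGA piglet, and SLA-3 at 144 and 106 CPM, so the AGA piglet alone was above the 18 for both. The summed level of the 13 class I genes with an entry was 1231 and 1765 CPM in the CON replicate 2 piglets, ranks 2 and 1 of 24, and 468 CPM in SGA CON replicate 3, rank 8.

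The other genes of the pathway were taken from lists, each described by its counts. Of the 15 regulators tested, which include the RFX and NFY factors that sit on class II promoters and the interferon-γ pathway, 11 were lower on HF with a median log2 fold change of -0.081, and the smallest p belonged to TGFB1 (-0.14, adjusted p = 0.631), a cytokine that restrains class II expression. Of the 16 genes of antigen uptake and processing, 6 were lower on HF (median 0.038). AP1S1, an adaptor subunit of vesicle traffic (0.12, adjusted p = 0.629), and RAB7A, a GTPase of late endosomes (-0.084, adjusted p = 0.712), had the smallest p. Of the 10 genes of class II turnover and costimulation tested, 5 were lower (median 0.007), with CD83 at -0.18 (adjusted p = 0.737) and MIF, a ligand of CD74, at 0.10 (adjusted p = 0.798). None of the genes of these lists was a DEG for size, diet or the interaction. All 10 tested class I genes were lower on HF (median -0.22), and none was a DEG, with SLA-3 at -0.57 (adjusted p = 0.555) and TAPBP, the tapasin that helps load class I, at -0.14 (adjusted p = 0.581).

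Markers of the cells that could carry class II RNA were counted beside it. In bulk tissue fewer cells of a type and less RNA per cell cannot be told apart. The hippocampal neuron list summed to 6369 to 10660 CPM, with PROX1 of granule neurons at 37.1 to 64.4 CPM in every piglet, and CAMK2A, a kinase of excitatory neurons, was its DEG for size (0.13, adjusted p = 0.308). For microglia, 17 of 18 listed genes had an entry, and their summed level was 244 to 575 CPM in AGA CON, 225 to 427 in SGA CON, 254 to 490 in AGA HF and 261 to 429 in SGA HF piglets, with 13 of 16 tested genes lower on HF and none a DEG. PTPRC, the leukocyte phosphatase CD45 (-0.35, adjusted p = 0.719), and P2RY12, a receptor of resting microglia (-0.25, adjusted p = 0.736), had the smallest p. AGA CON replicate 2 had the highest sums of the microglia (575 CPM), B cell (14.2 CPM) and endothelium (466 CPM) lists and the lowest of the neuron list. For the border macrophage list AGA CON replicate 2 ranked 2 of 24, at 63.8 CPM. SGA CON replicate 3 had the highest border macrophage sum, 69.3 CPM, with STAB1 at 51.4 CPM. It ranked 1 of 24 for MRC1 (7.16 CPM, median of all 0.837), CD163 (1.04 CPM, at 0 in 20 libraries) and MS4A7 (8.20 CPM), 2 for STAB1, 4 for F13A1, 8 for SIGLEC1 and 21 for LYVE1 (0.693 CPM, median of all 1.13). Its dendritic cell sum was 14.7 CPM, rank 9. CCR7 and XCR1 of that list had their highest values there, at 1.39 and 1.27 CPM from 12 and 11 reads, whereas BATF3 ranked 11, ITGAX 15 and FLT3 18, and CLEC9A, CLEC10A and CD1E were at 0. These markers were picked out with their values known, and their part in the class II levels was not tested.

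The T and NK cell list was highest in the CON replicate 2 litter, with 30.7 CPM in the SGA and 24.2 CPM in the AGA piglet, followed by 18.0 CPM in SGA CON replicate 3, against group medians of 7.18 to 8.58 CPM. GNLY, a protein of cytotoxic granules, and CD5, a T and B cell surface protein, were at -0.74 (adjusted p = 0.557) and -0.80 (adjusted p = 0.714) for diet. CD28 was at 0 in all 24 libraries, CLEC9A, CLEC10A and CD1E of dendritic cells were at 0 in 21 to 22, and MS4A1 of B cells in 16. Dendritic and B cell sums stayed between 8.19 and 18.6 CPM and between 4.51 and 14.2 CPM. Their smallest p for diet belonged to BATF3 (-0.90, adjusted p = 0.781) and FLT3 (-0.10, adjusted p = 0.916), and to CD79A (0.14, adjusted p = 0.904). Border macrophage genes were led by MRC1 (-0.38, adjusted p = 0.940) and STAB1 (-0.054, adjusted p = 0.948).

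Neighbouring tissues and blood were counted in the same way. Choroid plexus genes summed to 36.9 to 178 CPM and were lower on HF in 4 of 5 (median log2 fold change -0.47). SGA CON replicate 3 and AGA CON replicate 2 ranked 2 and 3 of 24 for that sum, the former at 126 CPM. In SGA CON replicate 3 the sum was carried by FOLR1 (64.4 CPM, rank 1) and TTR (51.7 CPM, rank 2). There KL ranked 10, OTX2 14, SLC4A5 16 and KCNJ13 18. PRLR, CLIC6 and AQP1 ranked 4, 6 and 6 but held at most 0.462 CPM. None of the choroid plexus genes was a DEG for diet, with SLC4A5 at -0.68 (adjusted p = 0.714) and TTR at -0.96 (adjusted p = 0.777). Of the 9 meninges genes 6 were higher on HF, where PRG4 (4.91, adjusted p = 0.146) and TNMD (2.48, adjusted p = 0.217) were DEGs, the reverse direction of the class II β chains. Both rest on few reads. PRG4 had 107 reads in all, none in 12 libraries and at most 31 in a library. TNMD had 193 reads in all, none in 2 libraries and at most 40 in a library. Blood genes summed to 98.1 to 407 CPM, with HBB, a globin chain, at 0.36 (adjusted p = 0.788) and ALAS2 at 0.25 (adjusted p = 0.888). Of 8 endothelial genes 7 were lower on HF, FLT1 (-0.18, adjusted p = 0.677) and MFSD2A (-0.066, adjusted p = 0.804) with the smallest p. What part these cells had in the class II values was not tested.

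Finally, the 8 named genes outside the members whose deviations from the group means were most alike to the members' average over 24 libraries were SAA3 (Pearson r 0.910), CD3E (0.908), CXCL10 (0.895), ETV7 (0.876), IFI30 (0.845), TBX21 (0.835), JCHAIN (0.831) and CXCL9 (0.828), where the median of all genes was -0.01. These r are descriptions over libraries of which the high-class II ones are few, and without AGA CON replicate 2, SGA CON replicate 2 and SGA CON replicate 3 they were 0.631 to 0.882. The HF replicate 2 piglets, also high, were still included there. Several of these genes were read rarely. TBX21 had 47 reads in all and none in 9 libraries, CD3E 113 and none in 7, and CXCL9 177 and none in 13. SAA3 had 514 of its 650 reads in its highest library. SAA3, an acute phase protein, had 59.3 CPM in SGA CON replicate 3, 3.76 and 6.24 CPM in the CON replicate 2 piglets and a median of 0.136 CPM over all libraries. CXCL10 and CXCL9, chemokines for T cells, had 38.1 and 9.64 CPM in AGA CON replicate 2 and 18.4 and 7.55 CPM in its SGA littermate, but CXCL9 was at 0.462 CPM in SGA CON replicate 3. CD3E, a chain of the T cell receptor complex, had 4.82, 3.12 and 2.54 CPM in those 3 libraries and at most 1.17 CPM in the 18 piglets outside the 3 high litters. JCHAIN, which joins antibody units, exceeded its highest value of 5.31 CPM in those 18 piglets in AGA CON replicate 2 (19.9 CPM), SGA CON replicate 3 (15.4 CPM), SGA CON replicate 2 (9.85 CPM) and both HF replicate 2 piglets (9.12 and 9.02 CPM). IFI30, an enzyme that prepares proteins for class II loading, had 14.5 CPM in SGA CON replicate 3 and 9.34 and 10.8 CPM in the AGA and SGA piglets of CON replicate 2, against 3.75 to 6.74 CPM in the 18.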

How the data were processed

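Hippocampal polyA RNA of 24 piglets was sequenced single-end from stranded libraries. The authors trimmed the reads (Trimmomatic 0.33), aligned them to Sscrofa10.2 with STAR 2.5.2a and used featureCounts (Subread 1.5.0), strand-aware, to assign reads to exons by Entrez gene. The deposited values are whole-number counts, not normalized. An entry without an identifier, mitochondrial ribosomal and transfer RNA, held 0.613 to 1.62% of each library and was left out. Symbols came from a Sscrofa11.1 name table matched on gene identifier (23036 of 38882 matched).

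Groups, litters and cohorts are those of the labels, where a number marks a shared litter. Littermates' deviations from the group means correlated by 0.154 on average over all genes (0.014 to 0.329, above 0.1 in 9 of 12 pairs). No 2 libraries agreed within sampling noise (chi-square per degree of freedom at least 5.12). Counts were scaled by TMM. The software was edgeR 4.0.16, DESeq2 1.42.0, sva 3.50.0 and limma 3.58.1 on R 4.3.3, with glmQLFit and glmQLFTest on groups, sex and 5 surrogate variables for genes with 1 CPM in at least 3 libraries, and Benjamini-Hochberg adjustment over 7 contrasts. log2 CPM had a prior count of 2. Exact permutation tests on litters were two-sided. The fit was tested on simulated counts without litter or cohort differences. That test does not cover the spread between litters seen in the members. Counting intervals and floors cover counting error only.

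The members, gene lists and tests were chosen with earlier results of these data known. From each list the DEGs are named, or else the 2 genes with the smallest p for diet, and the 8 most similar genes were taken by rank. Results of some single genes are left out. Alternatives changed the test, scaling, filter, covariates, litters and cohorts.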

Additional observations from a re-analysis of the deposited data

Results flagged for a closer look

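In groups of 6 piglets, 10 of 32 combinations of member and group had a library far from the rest in CPM. Chance flags about 1 in 20 only where values are normally distributed and the combinations independent. The CPM values were skewed and most members moved together from litter to litter, so the flags cannot be set against that rate. All 10 were replicate 2 libraries, from the CON replicate 2 or the HF replicate 2 litter. AGA CON replicate 2 stood apart for SLA-DRA (37.5 CPM, next 13.9), SLA-DQA1 (27.1 CPM, next 7.12), SLA-DMA (14.3 CPM, next 5.04) and SLA-DOA (2.11 CPM, next 0.777). AGA HF replicate 2 stood apart for SLA-DRA (18.6 CPM, next 4.01), SLA-DRB1 (8.64 CPM, next 2.98) and SLA-DQA1 (12.5 CPM, next 2.71). Its littermate SGA HF replicate 2 stood apart for SLA-DRA (17.4 CPM, next 6.58) and SLA-DQA1 (13.5 CPM, next 5.16). SGA CON replicate 2 held the 5 CIITA reads of its group (0.821 CPM), the other 5 libraries being at 0. SGA CON replicate 3, the highest SLA-DRA library of all at 82.9 CPM, was not singled out in its group because SGA CON replicate 2 was high beside it.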

How the results depend on the processing

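Of the 7 SLA genes tested, the number of DEGs for diet was 0 in the fit reported and 2 with DESeq2, 1 with DESeq2 size factors in edgeR (where 36 of all genes were DEGs, against 26 in the fit reported), 1 without the low-count filter (45 of all genes), 2 with cohort in place of the surrogate variables, 2 with litter as a random replicate block and 1 without the CON replicate 2 litter, with a range of 0 to 2 over fits leaving out 1 litter. For HF and CON in AGA piglets it was 1 without the CON replicate 2 litter (0 to 2 over left-out litters), and in SGA piglets 2 with the random replicate block (0 to 1). For size, the interaction and SGA against AGA on each diet it was 0 under every alternative, left-out litters included. The replicate block changed no other count of calls.

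The median of the members for diet was -1.27 without surrogate variables, -1.09 with cohort, -1.20 with the random replicate block, -1.82 in cohort 1 and -1.10 with counts summed over littermates (-0.49 to -0.21 over left-out litters), and for the interaction -1.15 in cohort 1 (-0.30 to 0.09). For size it was 0.10 to 0.58 over left-out litters. The fits of 1 cohort, of the random replicate block and of the summed counts held no surrogate variables. The number of members with an exact p under 0.05 for diet was 0 without the CON replicate 2 and 3 litters (1 to 2 over left-out litters) and for size 0 to 2 over left-out litters.

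Directions that turned belonged to genes that were no DEGs. For size, SLA-DMB was at -0.072 without surrogate variables and with cohort in their place, at -0.090 and -0.087 with the fixed and the random replicate block, at -0.13 without the CON replicate 2 and 3 litters, at -0.035 in cohort 1 and at -0.15 in cohort 2, and SLA-DMA was at -0.078 without those 2 litters. SLA-DOA for size was at 0.47, 0.48, 0.41, 0.40 and 0.46 without surrogate variables, with cohort, with the fixed and random replicate blocks and in cohort 1, and for diet at -1.04, -0.86, -0.79 and -1.62 in the 1st, 2nd, 4th and 5th of these and at -0.98 with summed counts. For diet without the CON replicate 2 and 3 litters, SLA-DRA was at 0.015, SLA-DQA1 at 0.27, SLA-DMA at 0.0086 and SLA-DMB at 0.011, and in cohort 2 SLA-DQA1 was at 0.029 and SLA-DMB at 0.085. Litter means turned for SLA-DRA (0.0053), SLA-DQA1 (0.26) and SLA-DOA (0.12) without those 2 litters, and for SLA-DQA1 (0.048), SLA-DMB (0.079) and SLA-DOA (0.12) in cohort 2. Over left-out litters the size difference ran from 0.11 to 0.81 for SLA-DRA, from 0.18 to 0.81 for SLA-DQA1, from 0.22 to 0.63 for SLA-DQB1, from -0.048 (without CON replicate 1) to 0.65 for SLA-DRB1, from -0.0074 (without HF replicate 6) to 0.25 for SLA-DMA, from -0.032 (without CON replicate 3) to 0.13 for SLA-DMB and from -0.32 to 0.36 for SLA-DOA, and the diet difference from -0.26 to 0.14 for SLA-DOA. The cause was not tested.

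The between-litter share moved to 71.4% (cohort 1) and 58.9% (cohort 2) for SLA-DRA, 68.4% (cohort 1) for SLA-DQA1, 74.5% (without the CON replicate 2 and 3 litters) for SLA-DQB1, 68.2% (without CON replicate 2) and 68.5% (cohort 2) for SLA-DMA, 37.4% (without CON replicate 2) for SLA-DMB, and 59.8% (without CON replicate 2) and 53.0% (cohort 1) for SLA-DOA. Over left-out litters it was 81.4 to 91.0% for SLA-DRA, 68.5 to 81.5% for SLA-DRB1, 77.6 to 87.6% for SLA-DQA1, 82.0 to 90.2% for SLA-DQB1, 68.2 to 84.4% for SLA-DMA, 37.4 to 81.4% for SLA-DMB and 59.8 to 82.4% for SLA-DOA. The r with SLA-DRA turned for SLA-DMB, to -0.472 without the 2 farthest litters, -0.616 in cohort 2 and -0.345 on HF, and for SLA-DOA to -0.110 in cohort 2. The r with CIITA turned in cohort 2 for SLA-DRA (-0.481), SLA-DRB1 (-0.340), SLA-DQA1 (-0.550), SLA-DQB1 (-0.782) and SLA-DMA (-0.407), and for SLA-DMB without the 2 farthest litters (-0.316). Settings that leave out the CON replicate 2 and 3 litters together or SGA CON replicate 3 alone were chosen after the data were seen. SLA-DOA and CIITA, with 123 and 17 reads, are limited by depth.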
